A study of Mus musculus with 2 samples.

Results

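The regions described here were cytosines of CpG dinucleotides in distal intergenic DNA outside CpG islands. They were chosen by position alone: on an autosome, more than 10 kb from every annotated gene, more than 4 kb from any computed CpG island, outside soft-masked repeats and outside the recognition sites of the enzymes that cut the DNA, with at least 5 reads in each library. The rule gave 42168 cytosines at 25711 CpGs, or 1.24% of the 3413804 cytosines that had 5 reads in each library. The genome held 4048016 cytosines that met the positional part of the rule, of which 98930 were seen in either library and 57736 in both, so 1.04% were measured at the required depth. Both strands were measured at 16457 of the CpGs. Each autosome contributed 987 to 3494 cytosines.

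The DNA came from mouse C3H myoblasts, a muscle precursor line, that had been differentiated into myotubes in low-serum medium. The myotubes were transfected with a control siRNA (siCon) or with an siRNA that targets H19, a long non-coding RNA (siH19), and harvested after 48 h, with 1 library per group. Methylation was measured by reduced representation bisulphite sequencing after MspI and TaqαI digestion, which keeps short fragments, so only the distal CpGs that happen to lie close to such sites were seen. The distal cytosines lay in fragments with a median length of 139 bp, and 94.6% lay in fragments of 50 to 300 bp. Summed over cytosines, the siCon library held 104999613 reads and the siH19 library 106372792. At the distal cytosines the median depth was 22 in siCon and 18 in siH19. Without a second culture per group, every test below compares 2 libraries and not 2 conditions. Intervals and standard errors cover read counting only, since copies made by PCR could not be told from separate molecules. They also treat cytosines as independent. A read that spans several CpGs is counted at each, so they are too narrow where that occurs. A level is an average over all cells and both alleles of a culture. No RNA was measured here, so neither the myotube state nor the H19 level could be checked in these files.

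Methyl groups on CpG cytosines are placed by DNA methyltransferases, and most CpGs of a mammalian genome outside CpG islands carry them. Distal DNA is known to depart from this in more than 1 way. Active enhancers, the distal elements at which transcription factors bind, usually show a short local dip in methylation. In many cultured cells, large gene-poor domains also lose methylation partially over long distances, most of all at isolated CpGs flanked by A or T. A low level in distal DNA can therefore be local or belong to a whole domain, and the measurements below were arranged by the scale on which levels varied.

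Low-methylated stretches were sought as candidate enhancers. A stretch was a chain of at least 4 distal CpGs with gaps of at most 200 bp, and it was called low when the mean level of its CpGs, with reads of both libraries summed, was under 30%. The sequences below are those to which the results return: 3 low stretches near muscle genes, 4 low stretches inside highly methylated surroundings, and 2 stretches that differed between the libraries. They were read from GRCm38 (plus strand, at most 300 bases each), and capitals mark the CpGs with a measured distal cytosine. S7 spans 629 bp, so only its first 300 bases are shown and some of its 7 CpGs lie beyond them.
S7, low, upstream of Des, chr1:75344489-75344788, plus strand: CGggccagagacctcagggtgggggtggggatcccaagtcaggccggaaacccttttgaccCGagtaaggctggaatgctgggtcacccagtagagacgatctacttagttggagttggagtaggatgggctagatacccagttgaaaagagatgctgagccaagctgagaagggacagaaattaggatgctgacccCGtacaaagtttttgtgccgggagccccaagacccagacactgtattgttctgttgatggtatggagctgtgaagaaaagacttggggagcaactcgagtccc
S8, low, upstream of Pax7, chr4:139880195-139880433, plus strand: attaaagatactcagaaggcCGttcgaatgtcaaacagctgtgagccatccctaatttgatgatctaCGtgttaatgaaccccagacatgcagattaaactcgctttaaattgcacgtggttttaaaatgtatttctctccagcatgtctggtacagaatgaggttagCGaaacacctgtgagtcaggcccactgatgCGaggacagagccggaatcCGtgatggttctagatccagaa
S9, low, upstream of Eya2, chr2:165583740-165583971, plus strand: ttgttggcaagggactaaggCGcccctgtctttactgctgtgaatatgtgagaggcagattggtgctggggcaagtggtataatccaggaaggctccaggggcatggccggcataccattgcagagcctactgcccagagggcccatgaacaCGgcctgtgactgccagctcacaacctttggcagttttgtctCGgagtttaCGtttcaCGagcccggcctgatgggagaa
S24, low in methylated surroundings, nearest coding gene Med13l, chr5:118459538-118459759, plus strand: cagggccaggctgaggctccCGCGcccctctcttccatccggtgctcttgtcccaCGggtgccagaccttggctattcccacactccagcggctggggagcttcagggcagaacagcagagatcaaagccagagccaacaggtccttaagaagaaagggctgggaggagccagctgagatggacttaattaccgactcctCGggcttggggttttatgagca
S29, low in methylated surroundings, nearest coding gene Jade2, chr11:51881191-51881412, plus strand: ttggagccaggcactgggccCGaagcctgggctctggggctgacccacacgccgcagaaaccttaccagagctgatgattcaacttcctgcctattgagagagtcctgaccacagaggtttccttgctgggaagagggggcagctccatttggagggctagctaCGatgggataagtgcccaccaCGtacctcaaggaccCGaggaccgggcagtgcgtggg
S28, low in methylated surroundings, nearest coding gene Irf2bp2, chr8:126539900-126540199, plus strand: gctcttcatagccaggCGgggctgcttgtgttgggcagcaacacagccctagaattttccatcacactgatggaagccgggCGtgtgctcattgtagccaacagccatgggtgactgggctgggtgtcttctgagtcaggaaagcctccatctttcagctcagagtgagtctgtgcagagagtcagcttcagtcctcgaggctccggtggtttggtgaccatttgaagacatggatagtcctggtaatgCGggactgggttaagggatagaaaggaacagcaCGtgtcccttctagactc
S23, low in methylated surroundings, nearest coding gene Gadd45g, chr13:52001963-52002059, plus strand: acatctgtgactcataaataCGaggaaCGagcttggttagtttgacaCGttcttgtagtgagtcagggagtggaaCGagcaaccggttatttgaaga
S10, higher in siH19, nearest coding gene Intu, chr3:40115737-40115984, plus strand: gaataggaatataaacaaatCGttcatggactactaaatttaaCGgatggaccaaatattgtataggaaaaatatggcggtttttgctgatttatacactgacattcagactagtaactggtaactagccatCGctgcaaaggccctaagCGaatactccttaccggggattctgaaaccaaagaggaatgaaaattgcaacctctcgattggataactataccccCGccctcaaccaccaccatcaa
S12, higher in siH19, nearest coding gene Rph3a, chr5:121058369-121058430, plus strand: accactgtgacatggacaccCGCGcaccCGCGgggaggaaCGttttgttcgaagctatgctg

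Distal intergenic DNA was less methylated than the DNA of genes in both libraries. The unweighted mean of cytosine levels was 37.3% ± 0.0402 (counting SE) in siCon and 37.4% ± 0.0440 in siH19. Cytosines inside genes, chosen in the same way but away from gene starts, had 55.2% and 55.4%. The distal level was the lower on 19 of 19 autosomes in both libraries, with differences from -22.4 to -10.3 points in siCon. Distal cytosines within CpG islands had 43.5% and 43.7%, and the distal non-island level was lower than these on 18 of 19 autosomes. Soft-masked distal cytosines had 34.1% and 34.4%, and here the unmasked level was the lower on 1 autosome in siCon and on 3 in siH19. In siCon the distal level ranged from 30.9% on chromosome 7 to 46.0% on chromosome 13. With restriction-site cytosines kept the siCon distal level was 53.3%, and with a stricter island definition 43.03%. These are descriptions of 2 libraries, with no replicate to test them against.

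The low mean came from many nearly unmethylated cytosines rather than from a common intermediate level. In siCon 34.5% of the distal cytosines were under 10%, 35.3% lay from 20 to 80% and 19.4% were over 80%. The siH19 library gave 34.1%, 35.4% and 19.5%. Inside genes the shares under 10% were 20.6% in siCon and 20.5% in siH19, and 38.9% and 38.8% were over 80%. The median distal cytosine stood at 25% in both libraries, against 60.7% and 61.5% inside genes.

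**Figure D1:**
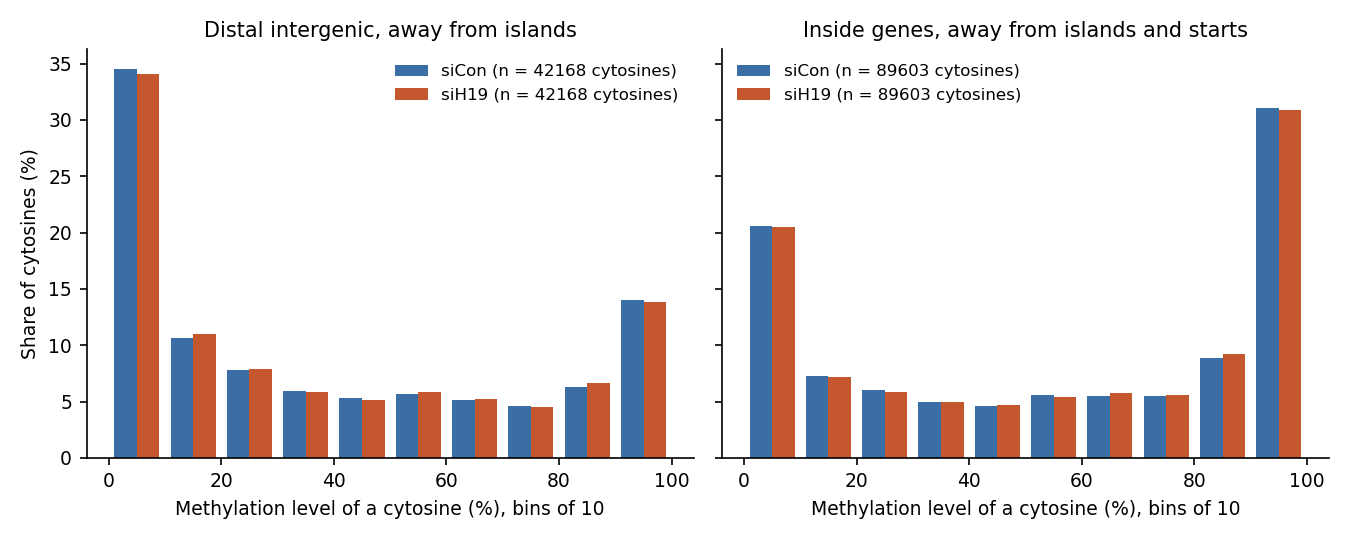
Share of cytosines (y axis, %) by methylation level (x axis, %, bins of 10) for distal intergenic cytosines away from islands (left) and cytosines inside genes away from islands and gene starts (right), with siCon in blue and siH19 in orange. Distal cytosines pile up in the lowest bin, with 34.5% in siCon and 34.1% in siH19, while cytosines in genes pile up in the highest.

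The distal level declined with distance from genes. At 10 to 20 kb from the nearest gene it was 41.8% in siCon and 42.2% in siH19, at 20 to 50 kb 39.3% and 39.2%, and at 50 to 100 kb 32.6% and 32.5%. At 100 to 200 kb it was 25.7% and 25.9%, and beyond 200 kb 21.8% and 21.9%. The order was the same in both libraries, and each step exceeded the counting error. Soft-masked distal cytosines declined too, from 38.6% to 26.1% in siCon over the same classes. Counted from protein-coding genes alone, the siCon level went from 44.5% at 10 to 20 kb to 26.7% beyond 200 kb. It also declined with distance from CpG islands, from 40.8% at 4 to 6 kb to 31.9% beyond 20 kb. At the rule's own limits, cytosines 10 to 12 kb from a gene had 42.4% in siCon and 43.2% in siH19, and those 8 to 10 kb away, outside the rule, 43.8% in both. At 4 to 5 kb from an island the levels were 39.9% and 40.2%, and at 3 to 4 kb, also outside the rule, 43.0% in both, a step larger than those between the island distance classes from 4 to 20 kb.

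The bases next to a CpG and its neighbouring CpGs went with the level as well. CpGs with C or G on both sides had 48.6% in both libraries, those with A or T on 1 side 37.3% and 37.4%, and those with A or T on both sides 28.9% and 29%. With 0, 1, 2 and at least 3 other CpGs within 35 bp, the siCon level was 27.4%, 33.3%, 41.3% and 50.5%, and the siH19 level 27.3%, 33.3%, 41.5% and 51%. Isolated CpGs with A or T on both sides were the lowest of these classes, at 20.2% and 20.1%, and crowded CpGs with C or G on both sides the highest, at 56.3% and 56.2%. The gradient was not particular to distal DNA, since inside genes the same classes ran from 36.9% to 73.5% in siCon. It was also present within regions: among 78 windows of 1 Mb with at least 10 cytosines of both flank classes, the A or T class was the lower in 70, with a median difference of -19.9 points and a range from -51.8 to 22.2. Distance from genes was less regular inside windows. Cytosines over 50 kb from a gene were lower than those within 20 kb in 71 of 114 windows, with a median difference of -6.15 points.

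**Figure D2:**
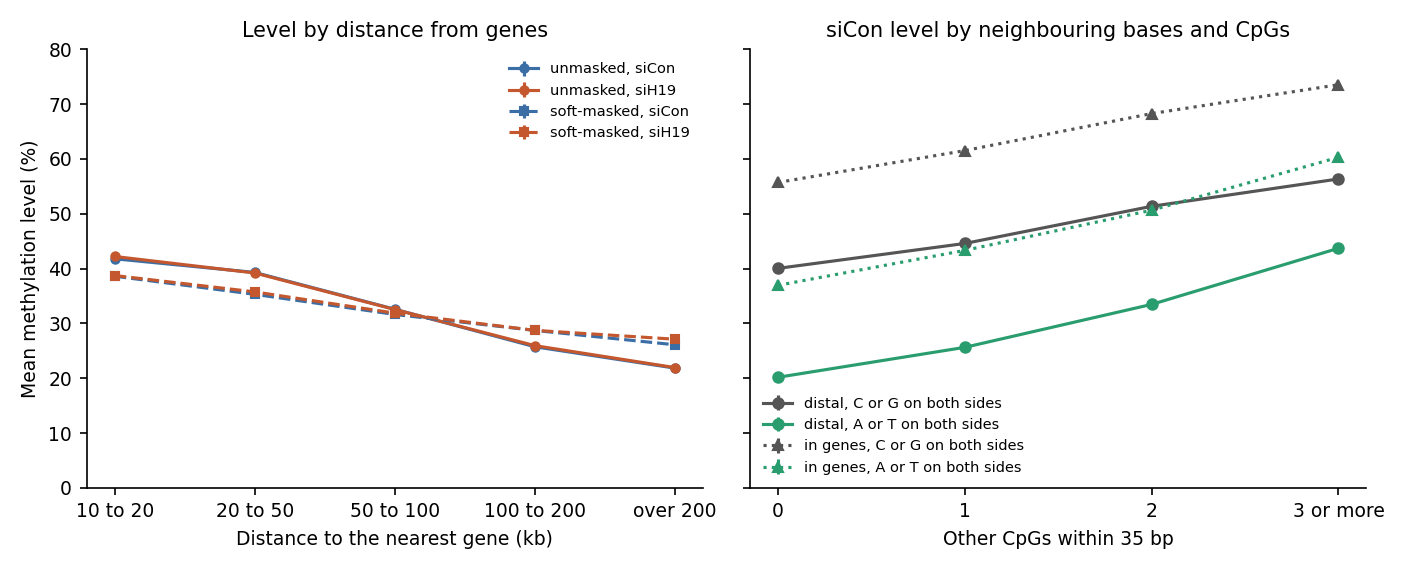
Mean methylation level (y axis, %) of distal cytosines by distance from the nearest gene (left, kb; solid unmasked, dashed soft-masked; siCon blue, siH19 orange) and siCon level by the number of other CpGs within 35 bp (right; circles distal, triangles in genes; grey C or G on both sides, green A or T on both sides); bars are 95% counting intervals, mostly smaller than the symbols. The unmasked distal siCon level goes from 41.8% to 21.8% with distance, and each line on the right climbs with CpG crowding.

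Depth, base composition and fragment length differ among these cytosines, and their values are given beside the levels. Cytosines whose smaller depth was 5 to 9 reads had 41.9% in siCon, and those with at least 50 reads had 25.8%. By GC content in 200 bp the siCon level was 32% under 40% GC and 37.0% above 50% GC. By fragment length it was 36.7% up to 100 bp and 39.7% over 300 bp. The part of depth in the gradients was not tested. With at least 20 reads in each library the siCon difference between the flank classes was -18.7 points, against -19.6 for all distal cytosines, and that between cytosines over 100 kb and those 10 to 20 kb from a gene was -15.3 points against -16.9.

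Levels also varied on the scale of megabases, and in the same places in both libraries. The 833 windows of 1 Mb with at least 20 distal cytosines held 29406 of them. Window levels ran from 3.58% to 88.5% in siCon, with a median of 37.9% and an SD of 19 points over windows, and from 3.16% to 90.1% in siH19, with a median of 38.1% and an SD of 19.2. Under 20% stood 170 windows in siCon and 171 in siH19, and over 60% stood 127 and 121. Of the 170 low windows of siCon 155 were under 20% in siH19 too, and the highest of the others reached 22.6%. Across the 833 windows, which are not independent samples, Pearson's r was 0.991 between the libraries and 0.944 between plus-strand and minus-strand cytosines. The strands of a window are read from different molecules but share the CpGs, and the windows of both libraries share position and base composition. With the soft-masked distal cytosines of the same window, where at least 20 were measured, r was 0.763 over 233 windows. With cytosines inside genes it was 0.526 over 557 windows.

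Windows in which no protein-coding gene started were the least methylated. Each gene was counted in the window of its start alone, so a window with 0 starts can still hold part of a gene. The median level with reads of both libraries pooled was 21.9% in the 97 windows with 0 starts and 36% in the 316 with 1 to 4. It was 45.3% in the 341 with 5 to 14 starts and 39.3% in the 79 with at least 15. The ranges of these classes overlapped widely, and the most gene-rich class was not the highest. Median depth of a window and its level had r = -0.242.

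**Figure D3:**
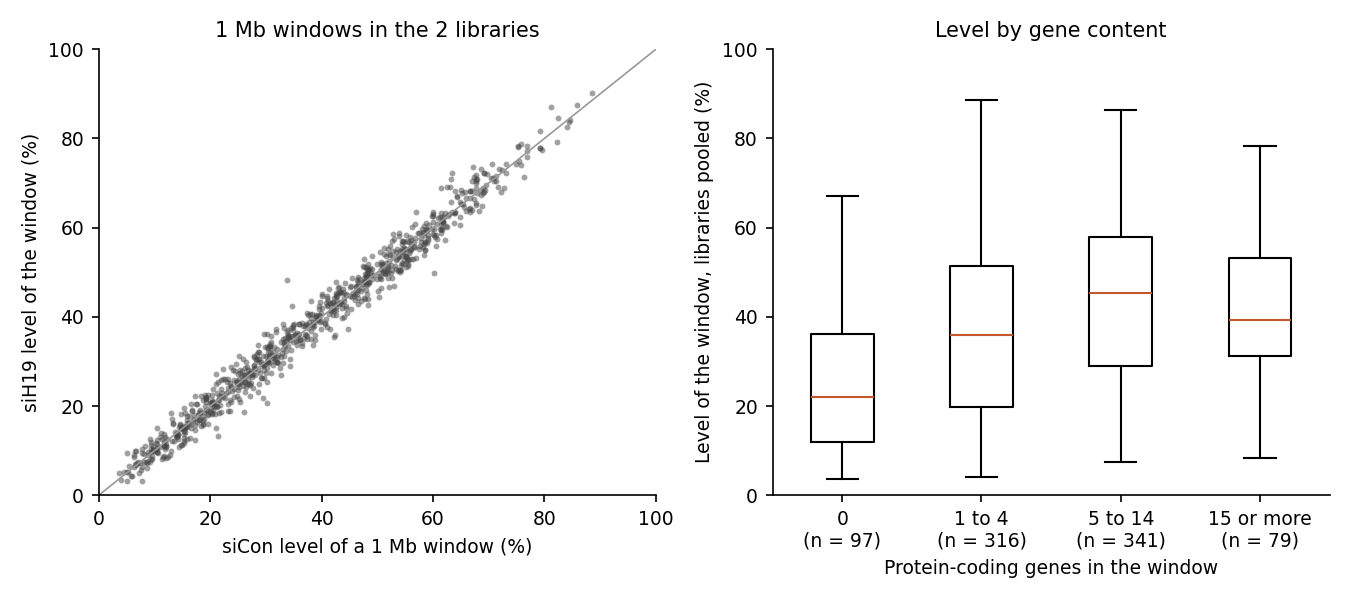
Left, level of the distal cytosines of each of 833 windows of 1 Mb in siCon (x axis, %) and siH19 (y axis, %), with the line of equality; right, window level with both libraries pooled (y axis, %) by the number of protein-coding genes in the window, as boxes of the quartiles with the median in orange and whiskers to the lowest and highest. Points follow the line from 3.58% to 88.5% in siCon, and the median is lowest, at 21.9%, where no protein-coding gene starts in the window. Each gene is counted in the window that holds its start.

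Likeness between CpGs faded over short and long distances, though not at every step. The level of a CpG in siCon and that of the same CpG in siH19 had r = 0.952 over 25711 CpGs. For pairs of CpGs at most 20 bp apart, with 1 CpG taken from each library, r was 0.789, at 20 to 100 bp 0.498, at 100 bp to 1 kb 0.417 and at 1 to 10 kb 0.267. It was slightly higher, 0.303, at 10 to 100 kb, then 0.182 at 100 kb to 1 Mb and 0.0320 at 1 to 10 Mb. The median absolute difference was 4.80 points for the same CpG and 32.2 points at 1 to 10 Mb. Between these it dropped once, from 25 points at 1 to 10 kb to 22.9 at 10 to 100 kb. These are descriptions over pairs that share CpGs.

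Chains of CpGs dense enough to form a stretch held 5705 of the distal cytosines (13.5%). There were 744 stretches, with a median of 4 CpGs over 177 bp and median totals of 183.5 reads in siCon and 150.5 in siH19. Of these, 266 (35.8%) were low, 297 intermediate (30 to 70%) and 181 high (over 70%). The pooled levels chose these classes, so the levels that follow are a description. Low stretches had median levels of 11.2% in siCon and 11.9% in siH19, intermediate ones 50.8% and 51.1%, and high ones 83.0% and 83.5%. In 220 of the 266 low stretches no CpG reached 50%, and in 143 none reached 30%. Intermediate stretches were mixtures of low and high CpGs, with a median range of 67.5 points between the lowest and the highest CpG of a stretch. The 12 stretches just under the limit, from 28 to 30%, had medians of 29.4% in siCon and 28% in siH19, and the 11 just above it, up to 32%, had 29.9% and 32%.

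The call of a low stretch was repeatable within these data. Chosen on siCon reads alone 263 stretches were low, and on siH19 reads alone 264, with 248 low in both, or 94.3% of the first and 93.9% of the second. The siH19 level of a stretch low in siCon did not exceed 40.8%. Of 188 stretches low on the plus strand, among 513 with at least 3 cytosines on each strand, 179 were low on the minus strand. Low stretches made up 33.3% of those in distal islands, 31.2% of soft-masked distal ones, 19.6% of those inside genes and 38.5% of all others, so the share in unmasked distal DNA was within the range of these classes. It was 35.1% at 10 to 20 kb from a gene, 31.5% at 20 to 50 kb, 41.2% at 50 to 100 kb and 55.6% of the 45 stretches beyond 100 kb.

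Most low stretches whose surroundings were measured lay in DNA that was low around them. Surroundings were the distal cytosines, masked or not, from 1 to 250 kb on either side, and at least 10 were measured for 624 stretches. Their median level was 27.2% around low stretches, 40.01% around intermediate ones and 53.2% around high ones, and the level of a stretch and of its surroundings had r = 0.431 over the 624. Of the 226 low stretches with measured surroundings, 132 (58.4%) had surroundings under 30% and 25 (11.1%) had surroundings over 60%. Of all 624 stretches, 227 and 116 did. The shares were 33.2% and 16.6% of intermediate stretches, and 7.59% and 33.8% of high ones. The limit of 60% was set after the values had been seen, so the 25 low stretches are described without a test.

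**Figure D4:**
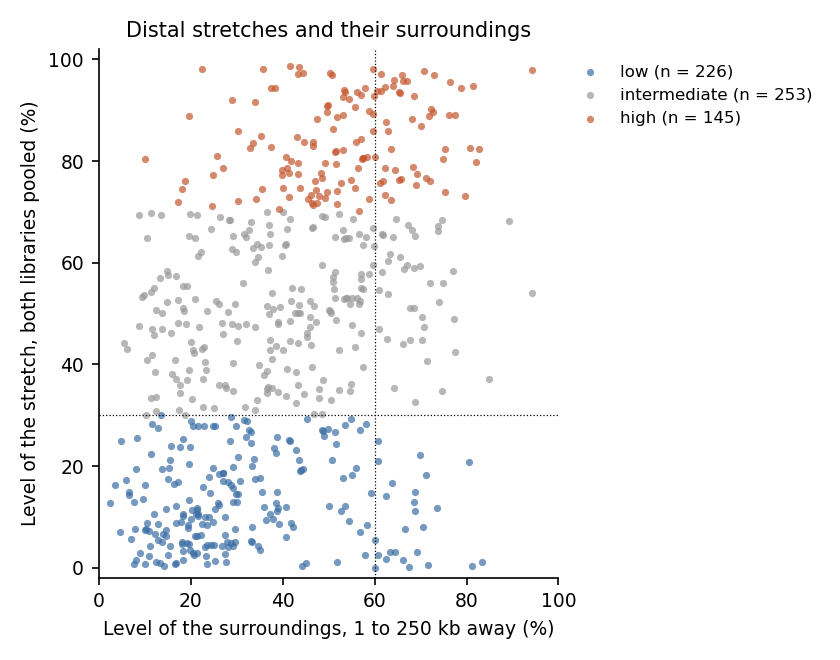
Level of each distal stretch with both libraries pooled (y axis, %) against the level of the distal cytosines 1 to 250 kb around it (x axis, %), for 226 low, 253 intermediate and 145 high stretches; dotted lines mark 30% for a low stretch and 60% for highly methylated surroundings. Low stretches crowd to the left, and 25 lie right of the 60% line.

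The 25 low stretches in highly methylated surroundings came from 15 autosomes. Their levels ran from 0% to 25.2% in siCon, with a median of 5.23%, and from 0% to 27.3% in siH19, with a median of 6.04%, while their surroundings ran from 60.0% to 83.3%, each measured at 11 to 91 cytosines. In 11 of them the mean was under 5% in both libraries. Among these, S37 rested on 0 of 32 reads in siCon and 0 of 26 in siH19. Taken as separate reads these allow up to 9.38% and 11.5%, so a level under 5% was not shown there. Stretch S24, 100.9 kb upstream of Med13l, which encodes a subunit of the Mediator kinase module, had 1.28% in siCon and 0.714% in siH19, against 85.1% and 82.6% in its surroundings. S29, 23.6 kb upstream of Jade2, which encodes a component of histone acetyltransferase complexes, had 0.357% and 0% against 80.1% and 82.4%. The 0% was 0 of 76 reads counted per cytosine, with 19 siH19 reads at each CpG. Taken as 76 separate reads it allows up to 3.95%, and the limit is wider where 1 read spans several CpGs. Both S24 and S29 stood far below what lay around them in either library. S28, 48.1 kb downstream of Irf2bp2, which encodes a transcriptional corepressor, had 0.490% and 0.581% against 70.5% and 72.04%. S23, 154 kb downstream of Gadd45g, a stress-response gene, had 0% in siCon over 366 reads, counted per cytosine, and 0.342% in siH19 over 293, with surroundings of 67.02% and 67.9% at 91 cytosines. The 0 of 366 allows up to 0.820% if each count is a separate read. Reads that span several CpGs are counted at each, with 90 to 92 siCon reads a CpG, so the limit is wider than that. The distances are to the nearest protein-coding gene, which need not be a gene that such a stretch acts on.

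The low stretches with the most CpGs were S1, with 12 CpGs over 780 bp, and S2, with 10 over 535 bp. S1 (chr5:124963751-124964530), 38.7 kb upstream of Rflna, a gene for an actin-organising protein, had 7.51% in siCon and 6.09% in siH19, with no CpG over 26.2% pooled and surroundings of 56.8%. S2 (chr1:189716318-189716852), 11.4 kb upstream of the phosphatase gene Ptpn14, had 3.08% and 8.95%, and its surroundings 29.3%. The last 3 CpGs of S2, at 22.2% to 33.3% in siH19, rested on 9 siH19 reads each. With reads summed S2 had 2.61% in siCon and 3.29% in siH19. S3 lay 165 kb downstream of Vrk1, a kinase gene, with 8.17% and 10.4%, and S4 12.2 kb upstream of Jakmip1 with 9.63% and 9.52%. S5, 388 kb upstream of the retinoic acid receptor gene Rarb, had 22.6% and 15.7%. S6 lay 16.1 kb upstream of Nppb, which encodes a natriuretic peptide of heart muscle, and had 8.56% and 11.0%. Within S6 a single CpG at 1 end differed from the rest, with 54.7% in siCon and 65% in siH19, while the other 7 stayed at or under 4.76% in siCon and 13.5% in siH19.

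Muscle genes were looked up by a list of 62 regulators and muscle structural genes, of which 60 were found in the annotation. Within 100 kb of the start of 32 of them lay 216 distal cytosines, with 48.0% ± 0.591 (counting SE) in siCon and 48.3% ± 0.610 in siH19. Around neural genes 134 cytosines had 26.8% and 27.8%, around blood genes 138 had 42.2% and 44.3%, and around liver genes 52 had 25.3% and 22.4%. The neighbourhoods of muscle genes thus were the highest of the 4 lists, and above the 37.3% and 37.4% of all distal cytosines. The latter include cytosines far from any gene. At 10 to 20, 20 to 50 and 50 to 100 kb from the nearest protein-coding gene the siCon level was 44.5%, 43.6% and 40.1%. The part of distance in the height of the muscle list was not tested. With reads summed, the muscle and blood lists were close, at 41.7% and 40.1% in siCon and 42.9% and 41.0% in siH19. No test was made between the lists. There were 7 stretches near muscle genes, 3 low, 3 intermediate and 1 high, next to 2 near neural, 4 near blood and 1 near liver genes, too few to compare.

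Stretch S7 lay 15.2 kb upstream of Des, the gene for desmin, the intermediate filament of muscle. Its 7 CpGs had a mean of 1.90% in siCon and 2.35% in siH19 over 629 bp, and none exceeded 7.84% in siCon or 7.14% in siH19. Only 7 cytosines were measured in its surroundings, too few for a level. The 1 Mb window around S7 was itself low, at 13.4% in siCon and 15.9% in siH19 over 65 distal cytosines, those of S7 included. Whether S7 is a local dip was therefore not settled. S8 lay 46.7 kb upstream of Pax7, the transcription factor gene of muscle satellite cells. It had 8.78% in siCon and 7.74% in siH19, while its surroundings had 57.2% and 60.0%, so it was lower than its surroundings in both libraries. With both libraries pooled the surroundings had 58.3%, under the limit of 60%. S8 was therefore not counted among the low stretches in highly methylated surroundings. Of its 5 CpGs the third stood out in both libraries, with 34.9% and 37.3%, between neighbours at or under 3.13%. S9 lay 11.1 kb upstream of Eya2, whose product is a transcriptional coactivator in muscle formation. Its 5 CpGs were even, from 8% to 21.8% in siCon and 10.2% to 20.7% in siH19. The surroundings of S9, with 9 measured cytosines, also had too few for a level. The part that any of these stretches plays in a gene's transcription was not measured.

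**Figure D5:**
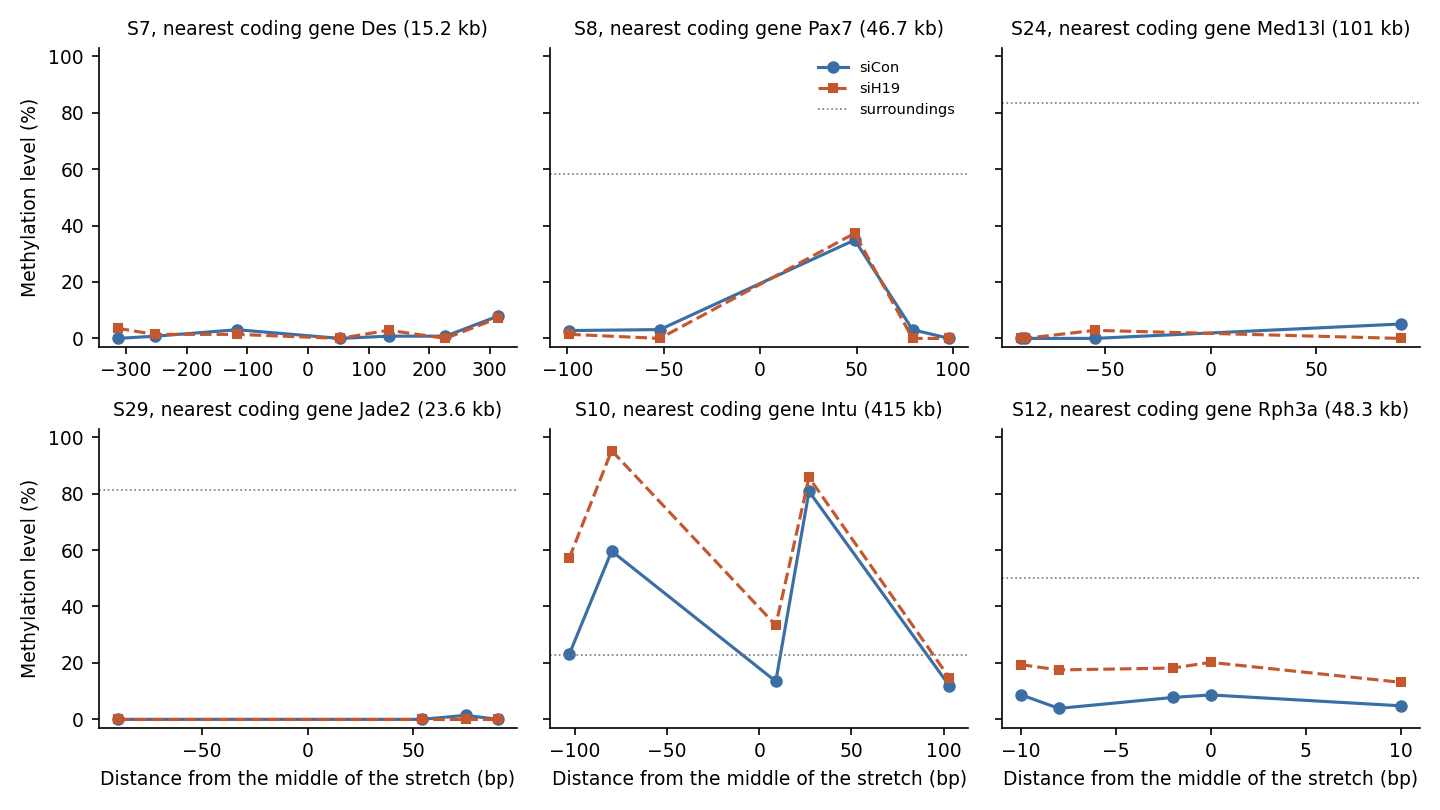
Methylation level of each CpG (y axis, %, strands summed) by distance from the middle of its stretch (x axis, bp) in siCon (blue circles) and siH19 (orange squares) for stretches S7, S8, S24, S29, S10 and S12, with the level of the surroundings dotted where at least 10 cytosines gave it. S7, S24 and S29 are near 0% throughout in both libraries, S8 has a single CpG at 34.9% and 37.3%, and in S10 and S12 each CpG is higher in siH19.

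Short motifs of factors active in muscle or at enhancers were counted in windows of 300 bp centred on the stretches, on both strands. The E-box CANNTG, bound by MyoD and its relatives, was in 87.2% of low, 79.5% of intermediate and 82.9% of high stretches, against 83.1% of all 744. The narrower form CAGCTG, a case of the E-box, was in 21.8%, 19.5% and 11.0%, against 18.3% of all. The AP-1 motif TGANTCA was in 13.2%, 9.76% and 7.73%, against 10.5%, and the MEF2 motif CTANNNNTAG in 3.01%, 3.37% and 5.52%, against 3.76%. The CArG box of SRF, written loosely as CCNNNNNNGG, was in 74.8%, 66.0% and 58.0%, against 67.2%, and the SP1 box GGGCGG, which holds a CpG, in 10.5%, 8.42% and 4.97%, against 8.33%. TEAD (GGAATG) and RUNX (TGTGGT) motifs were in 18.5% of all stretches each, and in 16.5% and 18.8% of the low ones. The windows of low stretches also had a higher median GC content, 50.3% against 47.7% for high ones, and the part of base composition in these shares was not tested. Of the 25 low stretches in methylated surroundings, chosen after their values were seen, 24 held the E-box and 22 the CArG box. These motifs were in 83.1% and 67.2% of all stretches, and in 87.2% and 74.8% of all low ones. AP-1 was in 8 of the 25 (32%, against 10.5% of all and 13.2% of low ones), among them S23, S28 and S29. CAGCTG was in 6 (24%, against 18.3% of all and 21.8% of low ones), among them S24. The MEF2, TEAD, RUNX and SP1 motifs were not summarised for the 25, so these counts cover only part of the motifs searched. No test was made of these counts. Of the sequences near muscle genes, S8 held both AP-1 and CAGCTG. A match is a description of letters and not a site.

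The comparison of siH19 with siCon asked whether distal methylation differed after H19 knockdown. The unweighted levels of 37.3% and 37.4% differed by 0.105 points, with a counting SE of 0.0595. The 95% counting interval ran from -0.0112 to 0.222, which includes 0. This interval and those that follow treat cytosines on 1 read as independent, so they look firmer than the reads allow. This call depended on the definition: with other read minimums, strand handling or limits of the rule the difference was between 0.0339 and 0.460 points, and its counting interval excluded 0 in 7 of 11 such settings, among them at least 10 reads (0.172 points) and strands summed (0.125 points). It was 0.0553 points on the plus strand and 0.156 on the minus strand. With reads summed, the levels were 34.5% in siCon and 35.01% in siH19, or 0.520 points more. By autosome the unweighted difference ran from -0.704 points on chromosome 19 to 0.964 on chromosome 3, and siH19 was higher on 12 of 19. Among the 1 Mb windows siH19 was higher in 421 of 833 (50.5%), with a median difference of 0.0149 points and an SD of 2.60. At 10 to 20 kb from genes siH19 was higher by 0.422 points, with a counting interval from 0.213 to 0.630, and in the other distance classes the interval included 0. Fragment length differed between the libraries: in fragments up to 100 bp the median depth was 21 in siCon and 33 in siH19 and the difference 0.462 points, while in fragments of 200 to 300 bp the depths were 25 and 8 and the difference -0.358 points. The part of fragment size in the difference was not tested.

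Single distal cytosines differed between the libraries in both directions in like numbers. Fisher's exact test gave p under 0.05 at 1271 of 42168 (3.01%). Strongly changed cytosines, with p under 0.05 and a difference of at least 33 points, numbered 503 (1.19%), against 1.42% of all cytosines compared and 0.986% of those outside restriction sites. Of the 503, 244 were higher in siH19 (0.579% of the distal cytosines, against 0.519% outside restriction sites) and 259 lower (0.614%, against 0.467%). After Benjamini-Hochberg adjustment over all cytosines 26 passed (0.0617%, against 0.0391% outside restriction sites), 16 higher and 10 lower. Of these 26, 24 lay in fragments up to 100 bp, which held 28.5% of the distal cytosines and 216 of the 503 strongly changed ones. That class had the greatest depth in siH19. The part of depth in these counts was not tested.

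The strands of a CpG within 1 library were compared for reference. The same test between the plus and minus cytosine of a CpG called 2.31% of 16457 CpGs strongly different in siCon and 2.00% in siH19, while between the libraries it called 1.10% of the plus and 1.24% of the minus cytosines of these CpGs. Levels had r = 0.908 and 0.909 between strands within siCon and siH19, and 0.933 and 0.931 between the libraries on the plus and minus strand, so strand differences were in part shared by both libraries and are not a measure of error. Where the opposite strand of a strongly changed cytosine was measured, its difference had the same direction in 200 of 385, or 51.9% (exact 95% interval 46.8 to 57.0). Over the 16457 CpGs the differences on the strands had r = 0.0256. At 7 CpGs both strands were strongly changed, at 5 of them in 1 direction.

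The named cytosines, those with the lowest p among 111 whose opposite strand moved the same way at sufficient depth, differed mainly on 1 strand. At chr11:114511897 (plus strand, 157 kb from Rpl38) the level was 5.56% of 36 reads in siCon and 51.7% of 58 in siH19, with an adjusted p of 0.00311 by Fisher's exact test, while the minus strand had 20% and 28.6%. At chr17:80005131 (plus, 24.4 kb from Hnrnpll) it was 41.2% and 74.4%, adjusted exact p = 0.0226, with 62.9% and 72.8% on the minus strand. In both cases the other strand differed by much less. At chr13:110706975 (plus, 306 kb from Plk2) the level was 100% of 16 reads in siCon and 25% of 32 in siH19, adjusted exact p = 0.00169, with 50% and 45.7% on the minus strand. At chr3:35496296 (plus, 258 kb from Atp11b) it was 66.7% of 12 reads and 6.25% of 32, adjusted exact p = 0.0455, with 44.4% and 23.8% on the minus strand. None of the 4 partners had a p under 0.05 of its own.

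Over stretches the libraries were alike in most cases. The common difference of a stretch, siH19 minus siCon with each cytosine a stratum, had a median of 0.175 points over the 744, against 0.117 over the 61852 stretches of all classes of sequence, and a range from -22.5 to 26.3. It was above 0 in 386 stretches and below 0 in 356. The median was 0.157 points in low, 0.223 in intermediate and 0.200 in high stretches. The Cochran-Mantel-Haenszel test gave an unadjusted p under 0.05 in 82 (11.0%, against 15.5% of all stretches). Called stretches, with an adjusted p under 0.05 and a difference of at least 10 points, numbered 5 (0.672%, against 1.07% of all stretches). All 5 were higher in siH19 (against 0.711% of all stretches called in that direction), 4 of them low and 1 intermediate. CpGs on 1 read are not independent, and a quasi-binomial test, which allows for extra spread between cytosines, called 0 of the 744 (against 0.034% of all stretches), with 18 at an unadjusted p under 0.05 (2.42%, against 6.76%). At so low an overall share a count of 0 is no result about distal stretches.

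S10, an intermediate stretch 415 kb upstream of Intu, a gene of cilium formation, had 37.8% in siCon and 57.2% in siH19. By the common difference it was 20.4 points higher in siH19, with an adjusted Cochran-Mantel-Haenszel p of 0.00436 and 0.402 by the quasi-binomial test. The 5 CpGs were each higher in siH19, from 12% and 14.8% at 1 end to 59.6% and 95.2% at the second CpG, on 21 to 27 siH19 reads a CpG. S11 (chr4:47684178-47684499), 201 kb downstream of the translocon gene Sec61b, had 14.5% and 38.3%, a common difference of 18.9 points and an adjusted p of 0.00571, with 0.821 by the quasi-binomial test. Here 2 CpGs rested on 6 siH19 reads each. S12, 5 CpGs within 22 bp, 48.3 kb upstream of Rph3a, a gene of vesicle release, had 6.77% in siCon and 17.7% in siH19. Each of its CpGs was higher in siH19, with 8.74% against 19.4% at 1 end and 4.81% against 13.1% at the other. By the common difference siH19 was 10.9 points higher (adjusted p = 7.18e-05, 0.140 by the quasi-binomial test), and its CpGs were read on the same molecules. None of the called stretches was lower in siH19, and the stretches near Des, Pax7 and Eya2 differed by 0.172, -1.52 and 2.30 points, with adjusted p of 0.965, 0.823 and 0.755.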

How the data were processed

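CpG methylation was measured in 1 siCon and 1 siH19 library, grouped by the sample labels. Per the study's methods, a service provider's pipeline aligned the reads for the authors by Bismark, with the non-directional option, trimmed filled-in nucleotides and divided the reads that kept C by all reads with C or T. Base calls came from bcl2fastq 1.8.4, and mm10 was the genome build, per the submitters' processing notes. The deposited files listed each cytosine and strand with values in another form than a number, namely a text string that joined the methylated and total read counts. The authors' score, the methylated fraction on a fixed scale, served only as a check and matched the read counts at 100% of cytosines. No normalisation was applied. Removal of duplicate reads was not given in the sources used here.

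All 6041258 positions on assembled chromosomes fell on CpGs of GRCm38, and 0 did not. Genes were the 55450 of the GENCODE annotation. CpG islands were all sequence covered by 200-bp windows of 50% GC or more whose observed over expected CpG ratio reached 0.6, merged into 180831 islands. Levels were computed per cytosine and strand with at least 5 reads in each library, and averaged with equal weight per cytosine. Cytosines were tested by two-sided Fisher's exact test and stretches by the Cochran-Mantel-Haenszel test, stratified by cytosine, with Benjamini-Hochberg adjustment over all 3413804 cytosines and all 61852 stretches outside restriction sites (Python 3.11.15, numpy 2.4.6, scipy 1.17.1). Scripts were tested on simulated data.

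The named stretches were the 6 low ones with the most CpGs, the low ones within 100 kb of a muscle gene's start, the called ones with 1 direction on both strands (at most 3 a direction), and, chosen after their values were seen, those in methylated surroundings. The named cytosines were the 2 with the lowest p in each direction among strongly changed ones with at least 10 reads on both strands and 1 direction. The members, gene lists and thresholds were chosen with earlier results of these data known. Other read minimums, weights, definitions and tests were tried as alternatives.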

Additional observations from a re-analysis of the deposited data

How the results depend on the processing

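With 1 library per group no replicate could be left out. No paired analysis was possible because there was 1 library per group. The level difference of 0.105 points kept its sign under all alternatives tried, from 0.0339 with depths within 1.5-fold to 0.520 read-weighted, and moved beyond its counting interval in that case, with at least 20 reads (0.299) and with restriction-site cytosines kept (0.460). Keeping those cytosines also reduced the flank difference from -19.6 to -11.3 points and the distance difference from -16.9 to -7.74 and raised the siCon level from 37.3% to 53.3%, while the stricter island definition raised it to 43.03%. The 503 strongly changed cytosines became 328 with at least 10 reads, 210 with strands summed, 1011 at 20 points, 1271 with no minimum difference and 23 with an adjusted p. The 266 low stretches became 738 with at least 3 CpGs, 7 with at least 8, 72 over 50 kb from genes and 997 with the stricter island definition, which leaves more DNA outside islands, with shares from 29.9% to 50% in these settings. The 5 called stretches became 36 when reads were summed before Fisher's exact test (20 higher), 0 by the quasi-binomial test, 10 with no minimum difference (8 higher), 1 at 20 points and 0 with at least 8 CpGs, where 14 stretches were left. S10 missed the threshold on summed reads (adjusted exact p = 0.134) and with at least 10 reads (0.0656), and S10, S11 and S12 missed it in the quasi-binomial test. The 25 low stretches in methylated surroundings, an alternative set chosen after seeing the data, became 44 with a limit of 50%, 19 with surroundings up to 100 kb and 23 with unmasked surroundings alone. Depth limits single cytosines: at a median of 18 to 22 reads only large differences could pass the adjustment.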
